A study of Caenorhabditis elegans with 4 samples.

Results

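The 4 *C. elegans* miRNAs *lsy-6*, *mir-124*, *mir-1* and *mir-228* are associated with neurons, muscle or glia, and *mir-228* also with seam cells of the skin. They were chosen by name for these tissues and not by a rule on their counts, though earlier results of these data were known. Listed as cel-lsy-6, cel-mir-124, cel-mir-1 and cel-mir-228, they were 4 of 148 miRNA names and took 7 of 219 rows in a count table of small RNA. The RNA came from whole L1 larvae, grown at 20 °C and synchronized by bleaching, of 2 strains with 2 libraries each: *pry-1(mu38)* animals, which carry the mu38 allele of *pry-1* on chromosome I in all cells, and N2, the wild-type strain. *pry-1* encodes a worm Axin, a scaffold protein that restrains WNT/β-catenin signaling, and the comparison asks which miRNAs change when it is mutated. Each library pools many animals, and the labels do not say whether the libraries of a strain came from separate cultures, so p-values measure the spread between libraries, which may be technical. In bulk RNA of this kind, fewer cells of a type and less RNA per cell cannot be told apart. The paper states that *pry-1* mutants grow more slowly than controls, and a difference in stage between the libraries was not tested.

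A miRNA is cut from a hairpin precursor, and mainly by its seed, bases 2 to 8, it pairs with messenger RNAs and lowers their output. *lsy-6* acts in the left ASE taste neuron (ASEL), where it represses the homeobox gene *cog-1* and so sets the left-right difference between the ASE neurons. *mir-124* is made in ciliated sensory neurons of the worm and is a neuronal miRNA in many animals. *mir-1* is made in muscle from worms to vertebrates, and in *C. elegans* it acts on acetylcholine receptor subunits and on MEF-2 at the neuromuscular junction. The *mir-228* promoter is active in glia and is used as a driver for these cells, but *mir-228* is also associated with seam cells. Its level in whole animals is therefore not a measure of glia alone. The paper reports extra seam cells in *pry-1(mu38)* at a later larval stage, and a link to *mir-228* was not tested.

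The mature sequences below, from the study's list of detected miRNAs, show how the seeds, in capitals, relate the members, together with *mir-790*, a listed miRNA with a similar seed.
lsy-6: uUUUGUAUgagacgcauuucga
mir-124: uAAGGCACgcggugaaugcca
mir-228: aAUGGCACugcaugaauucacgg
mir-790: cUUGGCACucgcgaacaccgcg
The seeds of *mir-124*, *mir-228* and *mir-790* have bases 4 to 8 in common and are not all alike before them. There *mir-228* shares a seed base with *mir-124* and another with *mir-790*. Among 157 listed names no other miRNA had the common bases 4 to 8 at this place, and no other listed miRNA had the whole seed of *lsy-6*, *mir-124* or *mir-228*. *mir-1*, whose sequence is not printed here, shared its seed with *mir-796* alone. The mature miRNAs were 22 nt (*lsy-6*), 21 nt (*mir-124*), 21 nt (*mir-1*) and 23 nt (*mir-228*) long, so that 1 read covers each and counts compare without a correction for length. Their G and C content was 36.4% in *lsy-6*, 57.1% in *mir-124*, 28.6% in *mir-1* and 47.8% in *mir-228*, and biases of adapter ligation, which differ between miRNAs, were not measured.

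In the WBcel235 genome, the *lsy-6* hairpin lies on chromosome V from 10647232 to 10647304 on the plus strand. It overlaps no protein-coding gene and ends 89 bp from *C32C4.3*. *mir-124* lies on chromosome IV from 11871738 to 11871833 on the plus strand, inside an intron of *trpa-1*, a cation channel gene read on the same strand. *mir-228* lies at 5562025 to 5562122 of the same chromosome, also on the plus strand, clear of protein-coding genes and 3205 bp from *ari-2*. *mir-790*, its relative by seed, follows on the same strand 4300 bp away. *mir-1* lies on chromosome I from 6172662 to 6172757 on the minus strand, outside protein-coding genes, and 8000071 bp from *pry-1*, so the mutated gene and *mir-1* share a chromosome but are far apart. By length, the listed mature sequence is the 5′ arm for *mir-228* and the 3′ arm for *lsy-6*, *mir-124* and *mir-1*.

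The libraries held 3284425 and 4651818 miRNA counts in *pry-1(mu38)* and 6651178 and 6491918 in N2. Columns of the table are displaced against each other in stretches, and counts could be placed for 88 of 126 names with a listed read total. The abundant row of each of the 4 members stood as deposited and summed over the 4 libraries to the listed total, 1578 for *lsy-6*, 662 for *mir-124*, 2128 for *mir-1* and 4597473 for *mir-228*. *pry-1(mu38)* replicate 2 stood apart from its replicate for *lin-4*, an early developmental timing miRNA, at 24.9 and 745 CPM (counts per 1000000 counts of a library) in *pry-1(mu38)* and 18 and 19.7 CPM in N2. The members are therefore given with and without it. CPM here are scaled by TMM (trimmed mean of M-values), which corrects library sizes for composition. The *pry-1* messenger RNA itself is not measured in small RNA libraries, so the strain labels were not checked by it.

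No member passed the test between the strains. When 86 miRNAs were tested in edgeR (quasi-likelihood, p-values adjusted after Benjamini and Hochberg), 0 of 4 members reached an adjusted p under 0.05, against 1.16% of all miRNAs tested. At an unadjusted p under 0.05 the count was 0 of 4, against 8.14%. DESeq2 and edgeR's exact test also called 0 of 4. In TMM-scaled CPM, *lsy-6* was the 1 member of which both mutant libraries were below both N2 libraries, a pattern that 18.6% of all miRNAs showed. The libraries of the other 3 overlapped between the strains in these CPM. The fitted log2 fold changes had a median of -0.09 over the members and 0.08 over all 86 miRNAs.

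*lsy-6* had 197 and 266 counts in *pry-1(mu38)* and 540 and 575 counts in N2. Scaled, these were 62.1 and 53.6 CPM in *pry-1(mu38)*, against 91.6 and 80.8 CPM in N2. Both mutant libraries were the low ones, and the means were 57.9 ± 6.01 CPM in *pry-1(mu38)* and 86.2 ± 7.65 CPM in N2 (SD, n = 2 each). The log2 fold change was -0.57 (SE 0.34), with a 95% interval of -1.46 to 0.31 and an edgeR adjusted p of 0.534. Without TMM scaling, *lsy-6* was at 60 CPM (Wilson 95% interval 52.2 to 69) and 57.2 (50.7 to 64.5) in *pry-1(mu38)* and at 81.2 (74.6 to 88.3) and 88.6 (81.6 to 96.1) in N2. The strains were thus apart by more than counting error in each library, while the test across libraries did not call the difference. These intervals cover counting error only, since no molecular identifiers are described that would tell amplified copies apart. Without *pry-1(mu38)* replicate 2 the log2 fold change was -0.72, in a fit whose median over all miRNAs was -0.16. With any 1 library left out the log2 fold change of *lsy-6* lay between -0.72 and -0.48. *lsy-6* is the member known from the fewest cells, and it was counted in every library, at rank 93 and 97 in *pry-1(mu38)* and 81 and 82 in N2 by abundance among the rows of the table.

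*mir-124* was the rarest member, with 70 and 169 counts in *pry-1(mu38)* and 198 and 225 counts in N2. It stood at 22.1 and 34.1 CPM in *pry-1(mu38)* and at 33.6 and 31.6 CPM in N2. One mutant library was the lowest and the other the highest of the 4, so the strains overlapped. The means were 28.1 ± 8.49 CPM in *pry-1(mu38)* and 32.6 ± 1.4 CPM in N2 (SD, n = 2 each). The log2 fold change was -0.21 (SE 0.37), with a 95% interval of -1.19 to 0.76 and an edgeR adjusted p of 0.86. It was -0.81 without *pry-1(mu38)* replicate 2 and 0.11 without *pry-1(mu38)* replicate 1, so its sign turned without 1 of the mutant libraries. The medians over all miRNAs in these fits were -0.16 and 0.07. The ranks of *mir-124* by abundance were 115 and 110 in *pry-1(mu38)* and 104 and 102 in N2.

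*mir-1* had 214 and 635 counts in *pry-1(mu38)* and 449 and 830 counts in N2. It stood at 67.5 and 128 CPM in *pry-1(mu38)* and at 76.2 and 117 CPM in N2. The libraries numbered 2 of both strains were the high ones, and the strains overlapped. This order held for 12.8% of all miRNAs, and the labels do not say that a number marks a shared culture or day. The means were 97.8 ± 42.8 CPM in *pry-1(mu38)* and 96.4 ± 28.6 CPM in N2 (SD, n = 2 each). The log2 fold change was 0.02 (SE 0.48), with a 95% interval of -1.23 to 1.28 and an edgeR adjusted p of 0.978. The interval still includes changes of over 2-fold either way, so a change of that size in this muscle miRNA was not excluded by these libraries. Without *pry-1(mu38)* replicate 2 the log2 fold change was -0.77, beside a median of -0.16 over all miRNAs. Without *pry-1(mu38)* replicate 1 the log2 fold change was 0.45, beside a median of 0.07. Without N2 replicate 1 the log2 fold change of *mir-1* was -0.25, and its sign also turned under 8 settings that kept all 4 libraries, with values between -0.15 and -0.01.

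*mir-228* was the most abundant miRNA of every library, with 673070 and 1336761 counts in *pry-1(mu38)* and 1271255 and 1316387 counts in N2. It took 20.5% and 28.7% of all miRNA counts in *pry-1(mu38)*, and 19.1% and 20.3% in N2. By these shares, before TMM scaling, both mutant libraries were above both N2 libraries, *pry-1(mu38)* replicate 1 only slightly. How many miRNAs showed this order before scaling was not counted, so it is not read as a trait of *mir-228*. After scaling, 26.7% of all miRNAs showed it, and in a fit with library totals alone the median log2 fold change of all miRNAs was 0.13. Summed over the libraries *mir-228* exceeded *mir-90*, at 2679127 counts, and *mir-235*, at 2107482 counts, the next miRNAs in abundance. Its scaled level was 212000 and 270000 CPM in *pry-1(mu38)* and 216000 and 185000 CPM in N2. After this scaling the strains overlapped, and *pry-1(mu38)* replicate 2 was the highest library. The means were 241000 ± 40500 CPM in *pry-1(mu38)* and 200000 ± 21700 CPM in N2 (SD, n = 2 each). The log2 fold change was 0.27 (SE 0.24), with a 95% interval of -0.36 to 0.89 and an edgeR adjusted p of 0.657. Without *pry-1(mu38)* replicate 2 it was -0.16, in a fit whose median over all miRNAs was also -0.16, beside 0.08 with all 4 libraries.

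**Figure D1:**
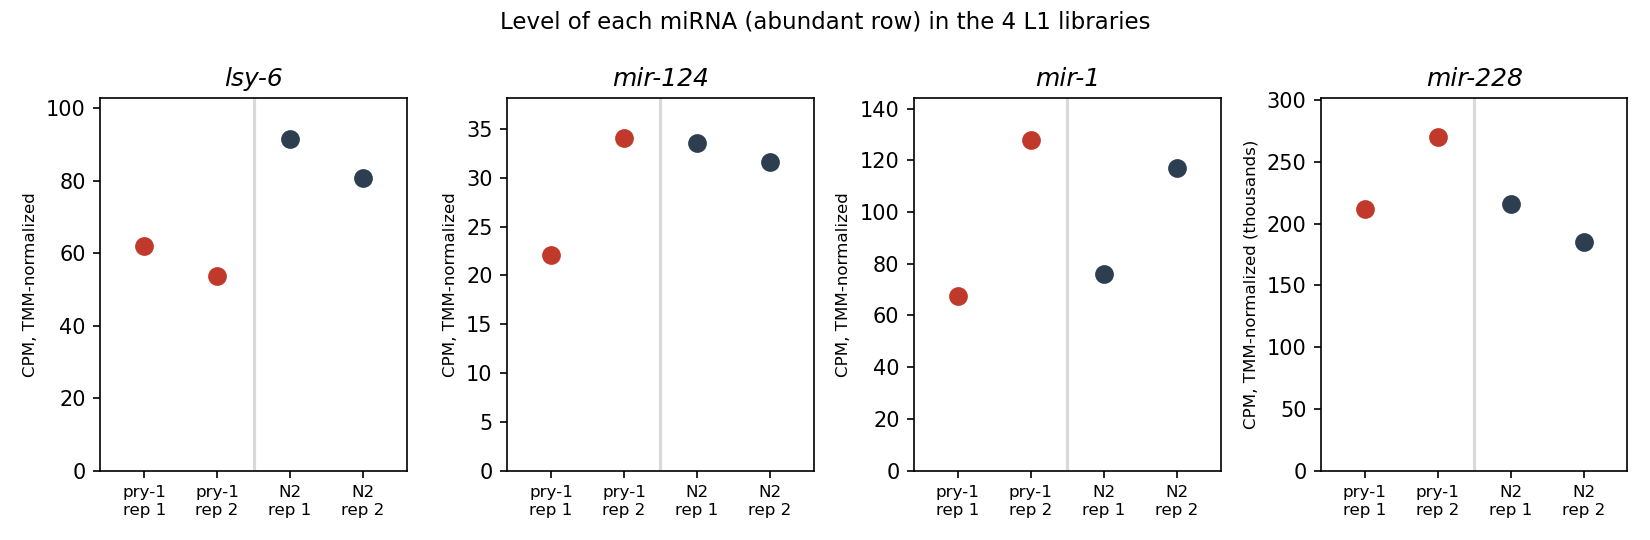
Level of each miRNA as TMM-scaled CPM (vertical axes from 0, divided by 1000 for *mir-228*) in the *pry-1(mu38)* libraries (red, left) and the N2 libraries (dark, right), 1 point per library. The mutant libraries lie below N2 for *lsy-6*, at 62.1 and 53.6 CPM against 91.6 and 80.8 CPM, and overlap N2 for the other 3.

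The spread between the 2 libraries of a strain differed between members. The replicates of *lsy-6* were apart 1.16-fold in *pry-1(mu38)* and 1.13-fold in N2, those of *mir-228* 1.27-fold and 1.17-fold, those of *mir-124* 1.53-fold and 1.06-fold, and those of *mir-1* 1.89-fold and 1.53-fold, mutant first in each pair. For *lin-4* the same measure was 29.3-fold in *pry-1(mu38)* and 1.09-fold in N2. None of the 4 members therefore showed the gap that set the mutant libraries apart for *lin-4*. Each was farther apart in *pry-1(mu38)* than in N2, but so were most of the miRNAs tested, so this is not particular to the members.

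**Figure D2:**
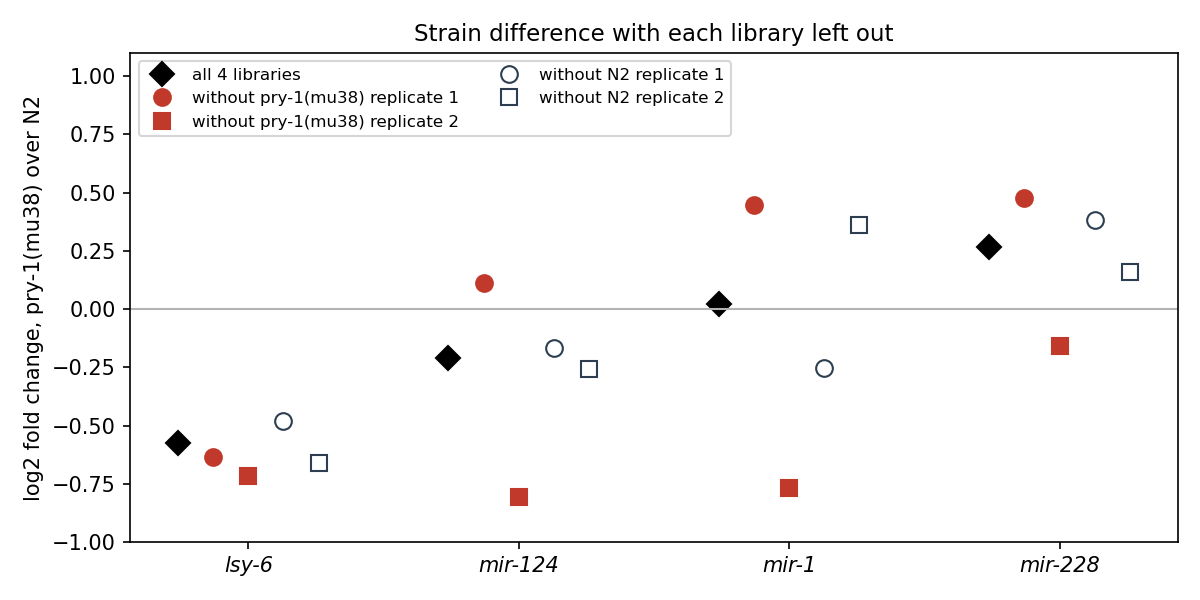
Log2 fold change of *pry-1(mu38)* over N2 (vertical axis) for each miRNA with all 4 libraries (black) and with 1 library left out (red for a mutant library, open for an N2 library). *lsy-6* stays between -0.72 and -0.48, while *mir-124*, *mir-1* and *mir-228* each lie on both sides of 0.

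Ratios of 2 members within a library do not depend on library size or scaling. *mir-228* outnumbered *lsy-6* 3420-fold (95% interval 2970 to 3930) and 5030-fold (4460 to 5670) in *pry-1(mu38)*, and 2350-fold (2160 to 2560) and 2290-fold (2110 to 2480) in N2. The ratio was higher in both mutant libraries by more than counting error, though an exact two-sided permutation test of 2 against 2 libraries cannot give a p below 0.333. The ratio of *mir-228* to another miRNA was higher in both mutant libraries for 31.8% of 85 miRNAs, and that of *lsy-6* to another was lower in both for 58.8%. Between the neuronal members, there were 2.81 and 1.57 *lsy-6* counts per *mir-124* count in *pry-1(mu38)*, against 2.73 and 2.56 in N2. *pry-1(mu38)* replicate 2 alone was low in this ratio, with an interval of 1.3 to 1.91.

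The order of *lsy-6* and *mir-1* was not the same in every library. There were 0.921 (95% interval 0.759 to 1.12) and 0.419 (0.363 to 0.483) *lsy-6* counts per *mir-1* count in *pry-1(mu38)*, and 1.2 (1.06 to 1.36) and 0.693 (0.623 to 0.77) in N2. *mir-1* was the more abundant in the libraries numbered 2, *lsy-6* was in N2 replicate 1, and in *pry-1(mu38)* replicate 1 they did not differ beyond counting error. *mir-1* exceeded *mir-124* in all 4 libraries, 3.06-fold and 3.76-fold in *pry-1(mu38)* and 2.27-fold and 3.69-fold in N2. *mir-228* exceeded *mir-1*, the muscle member, 3150-fold and 2110-fold in *pry-1(mu38)* and 2830-fold and 1590-fold in N2, so these strains overlapped. Together, *lsy-6*, *mir-124* and *mir-1* made up 146 and 230 CPM without TMM scaling in *pry-1(mu38)* and 178 and 251 in N2.

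*mir-124*, *mir-1* and *mir-228* each had a second, less abundant row of the same name, and *lsy-6* had 1 row. The rows carry no arm labels, so the second row may be the other arm of the hairpin or another product, and it is called the minor row here. Unlike the abundant rows, the minor rows were not checked by a listed total. Their counts rest on the nearest placed rows, which were not displaced. The minor row of *mir-1* had 193 and 181 counts in *pry-1(mu38)* and 203 and 346 counts in N2. It held 47.4% (Wilson 95% interval 42.6 to 52.3) and 22.2% (19.5 to 25.2) of the counts of both *mir-1* rows in *pry-1(mu38)*, and 31.1% (27.7 to 34.8) and 29.4% (26.9 to 32.1) in N2. The mutant libraries were the highest and the lowest, on either side of N2 beyond counting error.

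The minor row of *mir-124* had 15 and 5 counts in *pry-1(mu38)* and 36 and 25 counts in N2. Its share of both rows was 17.6% (11 to 27.1) and 2.87% (1.23 to 6.55) in *pry-1(mu38)* and 15.4% (11.3 to 20.6) and 10% (6.87 to 14.3) in N2. At these counts the replicates of *pry-1(mu38)* were apart, and *pry-1(mu38)* replicate 1 could not be told from N2. The minor row of *mir-228* had 1054 and 1184 counts in *pry-1(mu38)* and 2552 and 3321 counts in N2, a share of 0.156% (0.147 to 0.166) and 0.0885% (0.0836 to 0.0937) in *pry-1(mu38)* and 0.2% (0.193 to 0.208) and 0.252% (0.243 to 0.26) in N2. Both mutant libraries were below both N2 libraries, with the smallest exact permutation p that 2 against 2 allow, 0.333.

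**Figure D3:**
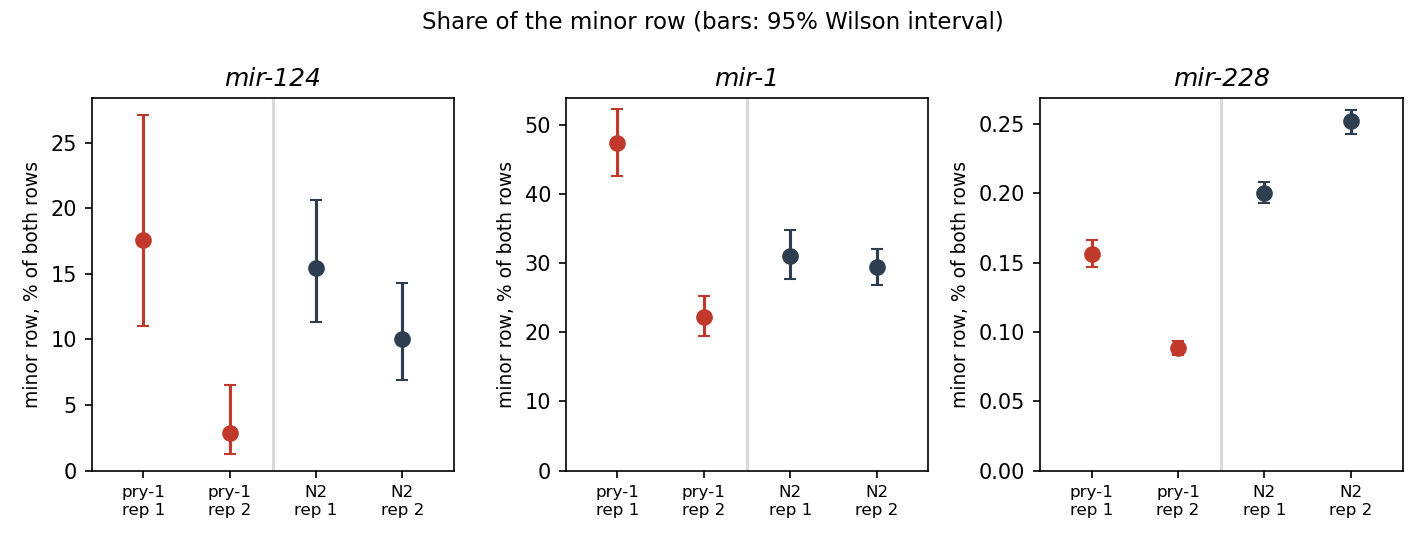
Share of the minor row in the counts of both rows of a name (vertical axes in percent, from 0) for *mir-124*, *mir-1* and *mir-228* in the *pry-1(mu38)* libraries (red, left) and the N2 libraries (dark, right), with 95% Wilson intervals. *pry-1(mu38)* replicate 2 is lowest in each panel, at 2.87%, 22.2% and 0.0885%.

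The share of the minor row was lowest in *pry-1(mu38)* replicate 2 for 3 of 3 members, and so it was for 6 of the 11 other names with 2 rows in stretches that were not displaced. It was lower in both mutant libraries than in both N2 libraries for *mir-228* and for 2 of those 11. The median share over the 4 libraries was 30.3% for *mir-1*, 12.7% for *mir-124* and 0.178% for *mir-228*. Over the other 11 names the medians ran between 0.0143% (*mir-90*) and 49.2% (*mir-230*), and *mir-230* alone was above *mir-1*. *mir-1* thus left nearly as many counts in its minor row as in its abundant row in *pry-1(mu38)* replicate 1. The minor row of *mir-228* held a share of at most 0.252% in any library, though with more counts than that of *mir-1*.

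Tested with all other rows in a fit over 89 rows, 0 of 3 minor rows were called by edgeR's adjusted p, against 1.12% of all rows, and 0 of 3 had an unadjusted p under 0.05, against 8.99%. The minor row of *mir-228* stood at 332 and 239 CPM in *pry-1(mu38)* and 433 and 467 CPM in N2, with a log2 fold change of -0.66 (SE 0.33, edgeR adjusted p = 0.534). Both mutant libraries were below N2, as in 19.1% of the rows. The abundant row of *mir-228*, at 0.27, had a fitted change of the other sign. For the minor rows of *mir-124* and *mir-1*, whose strains overlapped, the log2 fold changes were -0.81 (SE 0.74, edgeR adjusted p = 0.664) and 0.23 (SE 0.43, edgeR adjusted p = 0.869).

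Other miRNAs of known place were set beside the members. *mir-791*, which acts in carbon dioxide-sensing neurons, stood at 42.6 and 54.4 CPM in *pry-1(mu38)* and at 99.6 and 63.5 CPM in N2. Both mutant libraries were lower, with a log2 fold change of -0.75 (SE 0.41, edgeR adjusted p = 0.534). *mir-234*, a further neuronal miRNA, stood at 65.9 and 63.3 CPM in *pry-1(mu38)* and at 74.5 and 82.2 CPM in N2, again with both mutant libraries lower and a log2 fold change of -0.28 (SE 0.33, edgeR adjusted p = 0.744).

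With *lsy-6* and *mir-124*, all 4 of these neuronal miRNAs had a fitted log2 fold change below 0, against 43% of all miRNAs tested, and 3 of the 4 had both mutant libraries below N2, against 18.6% of all. None of the 4 passed the test. The list was put together by hand, with earlier results of these data known, and does not hold every miRNA made in neurons. The direction of those left out is not given here, and some may go the other way. A change common to neuronal miRNAs was not tested. Their median log2 fold change was -0.43, beside 0.08 over all 86. Without *pry-1(mu38)* replicate 2 the median was -0.76 with 4 of 4 below 0, beside a median of -0.16 over all miRNAs, of which 65.5% were below 0. Without *pry-1(mu38)* replicate 1 it was -0.40 with 3 of 4 below 0, beside a median of 0.07 over all miRNAs, of which 44.8% were below 0. With the rows as deposited it was -0.38 with 3 of 4 below 0, beside a median of 0.06 and 47.5% below 0. *mir-60*, an intestinal miRNA, stood at 301 and 461 CPM in *pry-1(mu38)* and at 166 and 295 CPM in N2, higher in both mutant libraries as were 26.7% of all miRNAs. Its log2 fold change was 0.72 (SE 0.45, edgeR adjusted p = 0.534), and 0.12 without *pry-1(mu38)* replicate 2.

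**Figure D4:**
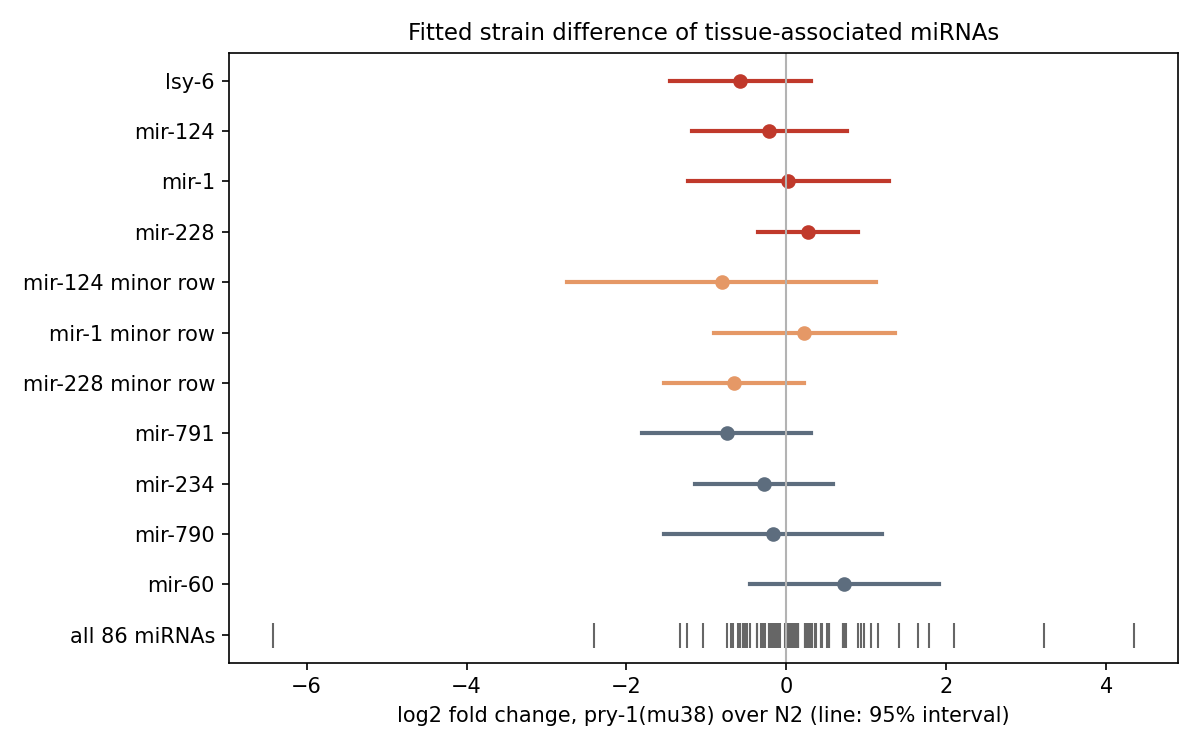
Fitted log2 fold change of *pry-1(mu38)* over N2 (horizontal axis) with 95% intervals for the members (red), their minor rows (orange) and *mir-791*, *mir-234*, *mir-790* and *mir-60* (grey), with all 86 miRNAs as ticks at the bottom. Each of the 11 intervals drawn includes 0, among them that of *lsy-6*, from -1.46 to 0.31.

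Among the relatives by seed, *mir-790* stood at 125 and 58.5 CPM in *pry-1(mu38)* and at 126 and 80.2 CPM in N2. These strains overlapped, and its log2 fold change was -0.17 (SE 0.52, edgeR adjusted p = 0.93). *mir-228*, its neighbour on chromosome IV, was by far the more abundant in every library. The counts of *mir-796*, the relative of *mir-1*, could not be placed and are not given.

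The miRNAs with the most similar profile over the 4 libraries were found by the largest difference, in any library, between log2 CPM centred on each miRNA's own mean. Nearest to *lsy-6* were *mir-90* (0.176) and *mir-74* (0.201). *mir-90* stood at 120000 and 83600 CPM in *pry-1(mu38)* and at 158000 and 134000 CPM in N2, and *mir-74* at 326 and 276 CPM in *pry-1(mu38)* and at 367 and 323 CPM in N2, and of these *mir-90* was lower in both mutant libraries. Nearest to *mir-124* were *mir-1829b* (0.125) and *mir-80* (0.148), and nearest to *mir-228* were *mir-231* (0.180) and *mir-44* (0.183). Nearest to *mir-1* were *mir-793* (0.199), at 679 and 1140 CPM in *pry-1(mu38)* and 808 and 952 CPM in N2, and *mir-1829c* (0.235). With 4 libraries such likeness is a description only.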

How the data were processed

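Small RNA of whole L1 animals was sequenced in 2 *pry-1(mu38)* and 2 N2 libraries. The authors deposited 1 table of raw read counts per miRNA name. The study's methods name WBcel235, miRBase and miRDeep2, and the submitters' processing notes name BWA and DESeq. The counting rule of this table, versions, trimming and the treatment of reads that match several places are not given in the sources used here. The sources name different Illumina sequencers.

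Some stretches of the table have columns displaced by up to 3 rows. A miRNA's counts were placed by the read total that the study lists for it: a row that sums to it, or counts of the other 3 libraries from nearby rows with N2 replicate 1 in place. Of 88 placed names, 30 stood as deposited, 53 were displaced and 5 came within 0.1% of the total. The placed rows entered the test, with *mir-44* and an identical row once, and library sizes were sums over all deposited rows. Low counts were filtered by filterByExpr (minimum count 10), which left 86 miRNAs, scaled by TMM and tested by edgeR 4.0.16 (quasi-likelihood test) in R 4.3.3, two-sided, with Benjamini-Hochberg adjustment at 0.05. Minor rows were added in a second fit with the same scaling. DESeq2 1.42.0, edgeR's exact test, other scalings, other filters, the rows as deposited, a replicate block and fits without 1 library were alternatives.

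The text names the members with every row of theirs, their seed relatives, *mir-790*, *mir-791*, *mir-234*, *mir-60*, the 3 most abundant placed miRNAs and the 2 nearest profiles for each member. The others named, *lin-4*, *mir-230*, *mir-2209c* and *mir-246*, were chosen after their values were seen. The members and lists were chosen with earlier results of these data known. Mature sequences came from the study's list of miRNAs, and positions from Ensembl's WBcel235 annotation, the build the study names. Shares have Wilson 95% intervals (SciPy 1.17.1).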

Additional observations from a re-analysis of the deposited data

How the results depend on the processing

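No member passed an adjusted p of 0.05 under any alternative, where adjusted p-values ran between 0.319 and 0.967 for *lsy-6*, 0.461 and 0.986 for *mir-124*, 0.498 and 1 for *mir-1*, and 0.216 and 0.968 for *mir-228*. With 1 library left out, the log2 fold change ran between -0.72 and -0.48 for *lsy-6*, -0.81 and 0.11 for *mir-124*, -0.77 and 0.45 for *mir-1* (-0.25 without N2 replicate 1), and -0.16 and 0.48 for *mir-228*. Under the other alternatives it kept its sign for *lsy-6* (-0.75 to -0.53), *mir-124* (-0.35 to -0.16) and *mir-228* (0.12 to 0.32). For *mir-1*, close to 0 throughout, it was below 0 with DESeq2's size factors (-0.0273), upper-quartile scaling (-0.12), *mir-228* left out (-0.0137), no filter (-0.0370), a minimum of 10 counts per library (-0.0133), DESeq2's Wald test (-0.0271), rows as deposited (-0.15) and the replicate block (-0.0185). Scaling moved the median log2 fold change of all miRNAs between -0.09 (upper quartile) and 0.13 (library totals), beside 0.08 with TMM.

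The 1 miRNA called, *mir-2209c*, was placed by the displacement of the nearest placed miRNA above it, while *mir-228*, the nearest below, stood as deposited. It summed to 26 counts over the libraries, and its placement is uncertain. Leaving it out was an alternative chosen after seeing the data, like the minor rows added and the neuronal list under each setting. Without it 0 were called, with 6 at an unadjusted p under 0.05. The count was 0 without *mir-228*, without a filter, at a minimum of 10 counts per library and with rows as deposited (9, 8, 6 and 8 unadjusted), and 2 with edgeR's exact test (*mir-2209c* and *mir-246*). It was 1 with DESeq2's Wald test, which called *mir-246* and not *mir-2209c*. With 1 library left out it ran between 0 and 11, the highest without *pry-1(mu38)* replicate 1. The cause was not tested. Deviations of same-numbered libraries correlated at 0.307 over 86 miRNAs, 1 value for 2 pairs, and nothing in the labels ties the numbers to a shared culture. With the replicate block the count was 0 (18 unadjusted). The abundant row of *mir-124* rests on 70 to 225 counts per library and its minor row on 5 to 36.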
